A study of Mus musculus with 16 samples.

Results

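The effect of phenobarbital (PB) was measured in the livers of wild-type (WT) mice that had been initiated with diethylnitrosamine (DEN). The comparison took the 4 arrays titled WT DEN + PB and the 4 arrays titled WT DEN, 8 of the 16 arrays of the series, and covered all probes that were not controls. Each array held liver RNA from 1 male C57BL/6J mouse of 57 weeks. All 8 mice had received 1 intraperitoneal dose of DEN at 90 mg/kg and 5 weeks of age, and the WT DEN + PB mice then drank water with PB at 0.5 g/l from 7 to 57 weeks, while the WT DEN mice drank water without PB. Mice that received no DEN were not part of the comparison, so the effect of PB is measured on top of DEN in every case. The other 8 arrays held livers of mice with a null allele of Gadd45b (KO, from a stock of mixed background) under the same 2 treatments, and they entered the model fit for its estimate of the spread. The methods place the tissue outside visible tumours. The comparison asks which liver genes differ in RNA level after about a year of PB, a promoter of liver tumours in DEN-initiated mice.

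PB is the classical inducer of drug metabolism in the liver. It activates the constitutive androstane receptor (CAR, Nr1i3), a nuclear receptor of hepatocytes that moves into the nucleus, pairs with RXR and binds response elements near genes for cytochrome P450 enzymes, conjugating enzymes and transporters. The Cyp2b genes are the best known CAR targets, and many genes that respond to CAR also respond to the pregnane X receptor (PXR, Nr1i2). In mouse liver, several P450 and sulfotransferase genes are in addition set at different levels in males and females by the rhythm of growth hormone, so that a given gene can belong to both groups.

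The level of a gene is the log2 processed signal of its brightest tested probe minus the 75th percentile of the same array, so 0 marks that percentile. Levels are compared between arrays and never between probes. On the WT arrays that percentile ran from 175 to 294 units of processed signal. Of the spots, 58.7% to 67.7% were well above background by the scanner software, and none was saturated. Log2 levels over the probes tested correlated with r from 0.974 to 0.992 between WT arrays of 1 group and from 0.968 to 0.989 between WT arrays of different groups. Gadd45b, the gene disrupted in the KO mice, had signals well above background on 8 WT arrays of 8 and 0 KO arrays of 8. Its WT level was at least 32.5-fold higher (two-sided exact permutation test over 12870 assignments, p = 0.000155). The arrays lay on 4 slides, of which 3 held WT arrays of both treatments, and slide 4 held 1 WT array, WT DEN + PB 3.

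A gene was called when its brightest probe had an adjusted p under 0.05 in limma, adjusted over all 24454 probes tested, with a change of 1.5-fold or more. Among 13304 genes tested, 98 (0.737%) were called after PB, 87 (0.654%) higher and 11 (0.0827%) lower. Of all genes tested, 45.9% had a positive change and the median log2 change over all of them was -0.02. Rises of 2-fold or more were seen at 70 called genes, of 4-fold or more at 29 and of 8-fold or more at 13, and falls of 2-fold or more at 9. In these counts the 8 called genes with a group not well above background, 7 under DEN and 1 under DEN + PB, stand at their lower bound. At an unadjusted p under 0.05 there were 641 genes higher and 464 lower. The treatments did not overlap (all 4 arrays of either one above those of the other) at 687 genes, which is 5.16% of those tested, and at 97 of the 98 called genes. Nebl, which encodes the actin-binding protein nebulette, was the called gene whose groups overlapped, and its call was kept only without WT DEN 3 (1.81 to 2.74 over the 8 fits) and was lost under 6 of 13 further settings, slide as a fixed block among them. All 98 called genes changed in the same direction within each of the 3 slides that held both treatments. The same arrays had selected these genes and the share over all genes was not counted, so nothing is read from this. With slide as a fixed block, 64 of the 98 were called. Each fit was repeated with 1 WT array left out in turn. It was also repeated under 14 further settings of scaling, background correction, filter, moderation, samples and slide (13 where a stricter filter dropped the probe). A call of a named gene that was lost in these fits is given as such beside it. Both fits of normexp on all spots stand outside the 14 settings, and their losses are given for the named genes together below. Low signals depended on the background correction. At 23 of the 60 called genes that were named by size, list or PCR, the log2 change was smaller by more than 1.5 times in 1 or both of a pair of the 14 settings. These were the median signal without background correction and normexp correction fitted without spots far below their local background. Of these 23 genes, Akr1b7, Fndc5, Cyp2c65, Cyp2c66, Pnliprp1 and Ttc39a were still called under both. Normexp fitted on all spots, by either of its methods, left 11 of the 60 called in both fits, which were Cyp2b9, Cyp2b10, Cyp2b13, Cyp2c55, Gstm2, Sult2a7, Cbr3, Abcc4, Meg3, Smpd3 and Susd4. The other 49 lost their call in 1 or both of these normexp fits, which is repeated beside the gene for Hamp alone. In whole liver tissue, a change in the share of a cell type and a change in RNA per cell cannot be told apart.

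**Figure D1:**
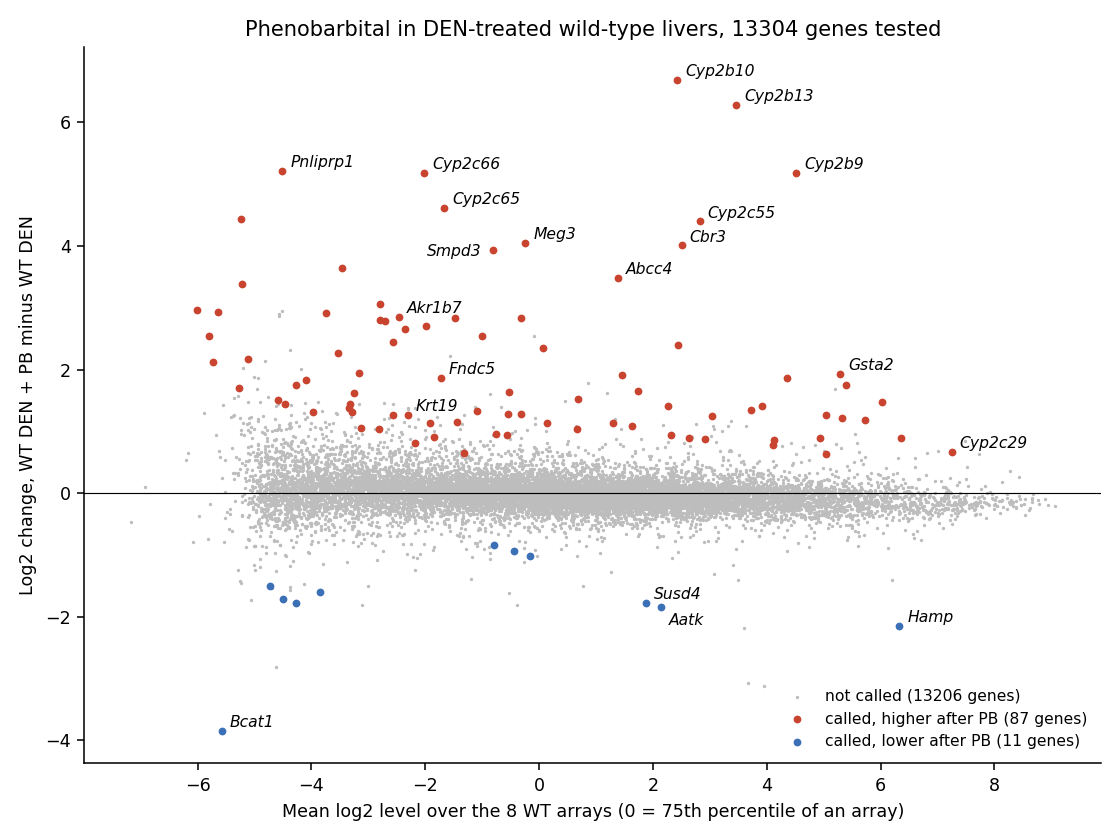
Log2 change after PB (WT DEN + PB minus WT DEN) against the mean log2 level over the 8 WT arrays for the 13304 genes tested, 1 point per gene. Red points are the 87 genes called higher, blue points the 11 called lower and grey points the genes not called. The Cyp2b and Cyp2c genes stand at the top with changes up to 6.69, and Pnliprp1 and Bcat1, whose levels in 1 group were not well above background, are drawn at their fitted values.

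Genes of the Cyp2b family, P450 enzymes that oxidise drugs, steroids and many foreign compounds, held the 3 largest rises among genes with a symbol and with a signal well above background under both treatments. The level of Cyp2b10 was 0.75, -0.62, -2.33 and -1.48 on the 4 WT DEN arrays and 5.97, 5.66, 6.12 and 5.33 on the 4 WT DEN + PB arrays. No WT DEN array came within 4 log2 units of a WT DEN + PB array, and WT DEN 1 was the highest of its group. The log2 change was 6.69 ± 0.62 (SE), 103-fold (limma adjusted p = 1.42e-05), and with 4 arrays in each group the exact permutation test gave its smallest possible p of 0.0286. Cyp2b13 had levels of 1.91, 0.37, -0.82 and -0.14 on the 4 WT DEN arrays and 6.66, 6.47, 6.91 and 6.38 on the 4 WT DEN + PB arrays, a log2 change of 6.28 ± 0.52 (adjusted p = 3.79e-06). Cyp2b9 had levels of 3.13, 2.12, 1.35 and 1.10 on the 4 WT DEN arrays and 6.82, 7.10, 7.09 and 7.45 on the 4 WT DEN + PB arrays, a log2 change of 5.19 ± 0.43 (adjusted p = 3.79e-06). In both genes WT DEN 1 was again the highest DEN array and the groups stayed apart. Second probes of Cyp2b9 and Cyp2b13 gave 6.12 ± 0.57 and 6.23 ± 1.07. On no WT DEN array was Cyp2b23 well above background, and it was at least 3.62-fold higher under DEN + PB, where its levels were -3.27, -3.67, -3.42 and -3.78. Its call was lost with the uncorrected median signal and with normexp without far-low spots, with log2 changes of 0.61 and 0.29. Cyp2b19, known from skin, had a change of -0.16 ± 0.22 and was the 1 of 5 members tested that was not called. The median of the family was 5.19, against -0.02 over all genes tested.

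The bases before the transcription start are shown for some of the genes with the largest rises. These bases lie outside the transcript, so their likeness does not measure how far the array can tell such genes apart. The sequences come from RefSeq on build GRCm38.p6 and end at the base before the annotated start. They are written 5′ to 3′ in the direction of transcription, and capitals mark AGGTCA, a core element that nuclear receptors such as CAR with RXR bind in pairs.
Cyp2b10, chr7:25897508-25897657, plus strand: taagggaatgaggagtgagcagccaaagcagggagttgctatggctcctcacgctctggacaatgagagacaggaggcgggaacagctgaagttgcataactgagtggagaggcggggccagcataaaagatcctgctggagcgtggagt
Cyp2b9, chr7:26173259-26173408, plus strand: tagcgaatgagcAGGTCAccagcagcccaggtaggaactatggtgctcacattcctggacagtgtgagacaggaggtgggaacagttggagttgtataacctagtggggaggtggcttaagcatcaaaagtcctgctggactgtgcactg
Cyp2b13, chr7:26061345-26061494, plus strand: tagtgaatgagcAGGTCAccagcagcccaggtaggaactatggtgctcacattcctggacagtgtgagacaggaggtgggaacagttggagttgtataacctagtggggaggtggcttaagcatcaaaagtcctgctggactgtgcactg
Cyp2c65, chr19:39060856-39061005, plus strand: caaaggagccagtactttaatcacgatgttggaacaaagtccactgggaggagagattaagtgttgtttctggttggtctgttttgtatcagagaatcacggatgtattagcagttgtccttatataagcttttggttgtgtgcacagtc
Cyp2c66, chr19:39113748-39113897, plus strand: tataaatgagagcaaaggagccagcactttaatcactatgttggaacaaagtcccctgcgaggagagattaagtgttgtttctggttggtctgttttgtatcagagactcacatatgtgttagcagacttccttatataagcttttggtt

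The windows of Cyp2b9 and Cyp2b13 were identical at 149 of 150 bases (99.3%), and the single difference was C4T, with Cyp2b9 first and positions counted from the 5′ end of the window. The Cyp2b10 window matched each of them at 112 of 153 aligned columns (73.2%), and those of Cyp2c65 and Cyp2c66 matched each other at 127 of 162 (78.4%). Transcripts of close relatives can bind to each other's probes, which the likeness of these untranscribed windows does not measure. Probe and transcript sequences were not compared here, so how much signal a probe drew from a relative was not tested. AGGTCA was found on either strand in the 250 bases before the start of 21 of 89 promoters (23.6%) of 68 genes called higher, in 11.6% of the promoters of genes tested and in 14.02% of all 32851 promoters of the table. The related sequence AGTTCA was in 7.87%, 8.85% and 11.8% of the same sets, and TGACNNNGC, the core of the element bound by the oxidative stress factor NRF2, in 7.87%, 11.6% and 10.2%. These are descriptions of letters in a short window, and promoters of close relatives were counted separately.

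The Cyp2c family, which includes oxidases of drugs and of arachidonic acid, had 6 of 11 tested members called higher, with a median log2 change of 0.68. Cyp2c55 had levels of 1.17, 0.43, 0.11 and 0.76 on the 4 WT DEN arrays and 5.03, 5.35, 5.16 and 4.53 on the 4 WT DEN + PB arrays, with narrow groups far apart, and rose by 4.40 ± 0.24 (adjusted p = 9.65e-08). The levels of Cyp2c66 were -3.23, -5.33, -4.75 and -5.12 on the 4 WT DEN arrays and 0.45, 1.81, 0.80 and -0.77 on the 4 WT DEN + PB arrays. Those of Cyp2c65 were -3.07, -5.06, -3.48 and -4.30 on the 4 WT DEN arrays and 0.33, 1.78, 0.70 and -0.22 on the 4 WT DEN + PB arrays. In both genes WT DEN + PB 2 was the highest and WT DEN + PB 4 the lowest array of its group, and WT DEN 1 stood above the other DEN arrays. Their log2 changes were 5.18 ± 0.56 and 4.62 ± 0.49 (adjusted p = 7.4e-05 and 5.53e-05). Smaller rises were measured at Cyp2c54 (1.26 ± 0.18), Cyp2c39 (1.22 ± 0.17) and Cyp2c29 (0.67 ± 0.14). The call of Cyp2c29 was kept only without WT DEN 1 or WT DEN + PB 1 or 3 (0.61 to 0.76 over the 8 fits) and was lost under 6 of 14 further settings, slide as a fixed block among them. Cyp2c39 and Cyp2c54 lost theirs with the authors' value table, which is not scaled between arrays. With normexp without far-low spots, Cyp2c66 and Cyp2c65 had log2 changes of 2.62 and 2.48.

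Among the Cyp1 and Cyp2a genes, Cyp2a22 rose from 3.74, 3.34, 2.83 and 3.76 under DEN to 5.56, 5.52, 4.73 and 5.29 under DEN + PB, a log2 change of 1.86 ± 0.29 (adjusted p = 0.00255). It was the only one of 7 tested members called, although all 7 changes were positive and 5 had an unadjusted p under 0.05. Cyp1a1, an enzyme known for its response to aryl hydrocarbons and singled out after its values were seen, had levels of -2.28 ± 0.27 under DEN and -1.19 ± 0.37 under DEN + PB (SD, n = 4), with the groups apart, at an adjusted p of 0.0672. Cyp1a2 had a change of 0.80 ± 0.24 and Cyp2a5, the coumarin hydroxylase, one of 0.43 ± 0.20, with overlapping groups. None of the 6 tested Cyp3a genes, whose human counterpart metabolises many drugs and which are targets of PXR, was called by limma, and 2 had an unadjusted p under 0.05. Cyp3a11 had levels of 7.41 ± 0.32 under DEN and 8.04 ± 0.17 under DEN + PB (adjusted p = 0.246) and Cyp3a13 had a change of 0.33 ± 0.19.

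P450 enzymes take electrons from the P450 oxidoreductase Por and hold a heme group. Por had levels of 6.17, 5.97, 6.09 and 5.39 on the 4 WT DEN arrays and 6.64, 6.75, 6.94 and 6.84 on the 4 WT DEN + PB arrays, which did not overlap, and rose by 0.89 ± 0.19 (adjusted p = 0.0335). Slc48a1, a heme transporter, rose by 0.88 ± 0.16 (adjusted p = 0.0116), and a second probe of it was not past the threshold (0.98 ± 0.23, adjusted p = 0.0791). The other 12 tested genes of electron supply and heme synthesis were not called, and the median of the list was 0.05. Alas1, the rate-limiting enzyme of heme synthesis, had levels of 4.92, 4.01, 4.59 and 3.90 on the 4 WT DEN arrays and 5.58, 6.04, 6.96 and 5.60 on the 4 WT DEN + PB arrays. Its groups did not overlap, and its change of 1.69 ± 0.40 had an adjusted p of 0.0802. The call of Por was kept only without WT DEN 1 or 3 (0.71 to 0.97 over the 8 fits) and was lost under 7 of 14 further settings, slide as a fixed block among them. That of Slc48a1 was lost without WT DEN + PB 2 (0.75 to 0.97 over the 8 fits) and under 3 of 14 further settings.

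**Figure D2:**
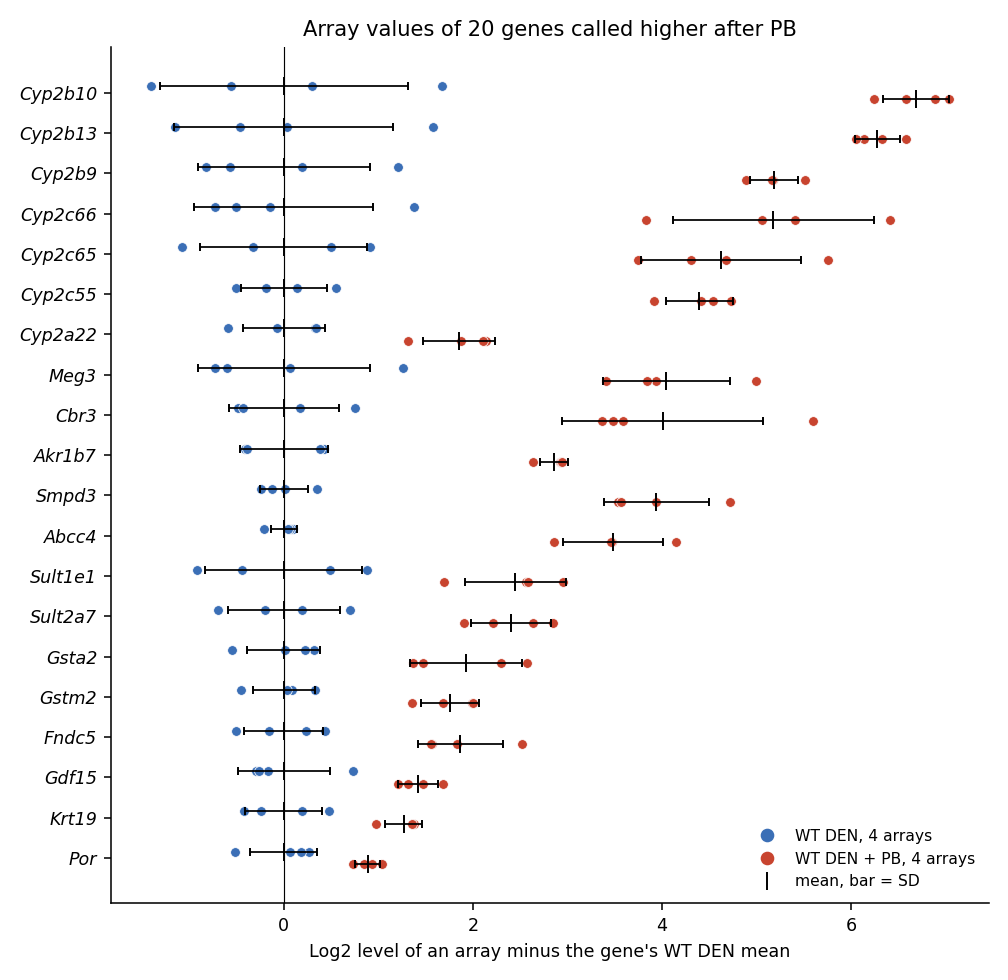
Log2 levels of 20 genes called higher after PB on the 4 WT DEN arrays (blue) and the 4 WT DEN + PB arrays (red), each minus the gene's WT DEN mean. The vertical tick is the group mean and the bar its SD. The groups do not overlap at any of the 20 genes, and the distance between group means falls from 6.69 for Cyp2b10 to 0.89 for Por.

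Conjugating enzymes attach glutathione, sulfate or glucuronic acid to reactive or fat-soluble compounds. Of 20 glutathione S-transferase genes tested, 6 rose and none fell, with a median of 0.20 over the family. The level of Gstm2 went from 4.84, 4.06, 4.60 and 4.54 under DEN to 6.19, 6.50, 5.86 and 6.51 under DEN + PB, a log2 change of 1.76 ± 0.21 (adjusted p = 2.07e-04). Gsta2 had levels of 4.64, 4.55, 4.33 and 3.78 on the 4 WT DEN arrays and 5.69, 5.80, 6.62 and 6.90 on the 4 WT DEN + PB arrays. Those of Gsta1 were 5.50, 5.33, 5.30 and 4.99 on the 4 WT DEN arrays and 6.16, 6.56, 6.87 and 7.45 on the 4 WT DEN + PB arrays. WT DEN + PB 4 was the highest array for both, and their changes were 1.93 ± 0.38 and 1.48 ± 0.28 (adjusted p = 0.0234 and 0.016). Gstm4 (1.24 ± 0.22), Gstt3 (1.18 ± 0.22) and Gsta4 (0.94 ± 0.19) rose as well. For Gstm1 the probes disagreed. Its brightest probe had levels of 8.68 ± 0.21 under DEN and 8.67 ± 0.17 under DEN + PB (SD, n = 4), and a second probe had a change of 1.38 ± 0.17 (adjusted p = 2.5e-04). The genes of the alpha and mu classes are close relatives, so members may share signal. The call of Gsta1 was lost without WT DEN 4 or WT DEN + PB 3 or 4 (1.25 to 1.68 over the 8 fits) and under 4 of 14 further settings, slide as a fixed block among them, and that of Gstt3 was lost without WT DEN + PB 4 (1.10 to 1.25 over the 8 fits) and under 1 of 14 further settings, slide as a fixed block among them. The call of Gsta2 was kept only without WT DEN 1 or WT DEN + PB 1 or 2 (1.71 to 2.12 over the 8 fits) and was lost under 4 of 14 further settings, slide as a fixed block among them. The call of Gsta4 was kept only without WT DEN + PB 1 (0.90 to 0.99 over the 8 fits) and was lost under 4 of 14 further settings, slide as a fixed block among them. Gstm4 kept its call with each array left out and lost it with slide as a fixed block and with the authors' value table. Of the 6 genes that rose, Gstm2 alone was called with slide as a fixed block. All 6 changes were positive within each of the 3 slides that held both treatments, which the choice of these genes on the same arrays favours.

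Sulfotransferases and the enzymes that make their sulfate donor had 3 of 10 tested genes called higher, with a median of 0.28. Sult1e1, the estrogen sulfotransferase, had levels of -3.30, -4.71, -2.90 and -4.23 on the 4 WT DEN arrays and -1.23, -0.83, -2.09 and -1.20 on the 4 WT DEN + PB arrays. The lowest WT DEN + PB array, replicate 3, was still above the highest WT DEN array, and the change was 2.45 ± 0.42 (adjusted p = 0.00672). Sult2a7 went from 1.95, 1.05, 1.44 and 0.55 under DEN to 3.46, 3.15, 3.89 and 4.09 under DEN + PB, a change of 2.40 ± 0.33 (adjusted p = 9.24e-04). Sult1c2 rose by 1.09 ± 0.22 (adjusted p = 0.0248), a call that was kept only without WT DEN 1 or WT DEN + PB 1 (0.98 to 1.22 over the 8 fits) and was lost under 5 of 14 further settings, slide as a fixed block among them. With normexp without far-low spots the change of Sult1e1 was 0.85 and not called. Papss2, which makes the sulfate donor, had a change of 0.28 ± 0.23 and was not called. The other 5 genes of the list on the array, Sult2a3 to Sult2a6 and Sult3a2, were below the filter, so the Sult2a family was seen here through few of its members.

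Of 15 glucuronosyltransferase genes tested, only Ugt2b35 was called, at 0.90 ± 0.16 (adjusted p = 0.00795), and the median of the family was 0.26. Its call was lost with the authors' value table. Ugt1a9, singled out after its values were seen, had levels of -1.06, -1.18, -2.43 and -0.76 on the 4 WT DEN arrays and 1.37, 0.98, 0.63 and 1.77 on the 4 WT DEN + PB arrays. Those groups did not overlap, yet its change of 2.55 ± 0.68 had an adjusted p of 0.143. Ugt2b34 had a change of 1.16 ± 0.27 (adjusted p = 0.0678) and Ugt1a1, the bilirubin-conjugating enzyme, one of 0.74 ± 0.47. The Ugt1a transcripts share their last exons, so a probe there would read several of them together.

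Further enzyme groups act on esters, epoxides and carbonyls. The carboxylesterases Ces2b and Ces2c rose by 1.42 ± 0.19 and 1.35 ± 0.19 (adjusted p = 8.42e-04 and 0.00137), 2 of 15 tested genes of their list, whose median was -0.08. For Ces2c 1 of 2 tested probes was called, and for Ces2b 2 of 2. Their relative Ces2a had a change of 0.81 ± 0.21 (adjusted p = 0.129), Ephx1, the microsomal epoxide hydrolase, one of 0.82 ± 0.24 (adjusted p = 0.211), and Ces4a, named for its size after the values were seen, one of -1.49 ± 0.38 (adjusted p = 0.124). All 3 had groups that did not overlap, and none was called. Of 28 aldo-keto, aldehyde and carbonyl enzymes tested, Cbr3 and Akr1b7 were called. The level of Cbr3, a carbonyl reductase, was 1.25, 0.01, 0.67 and 0.06 on the 4 WT DEN arrays and 3.86, 3.98, 4.08 and 6.10 on the 4 WT DEN + PB arrays. WT DEN + PB 4 stood well above the other 3 of its group, and the change was 4.01 ± 0.41 (adjusted p = 4.3e-05). Akr1b7, an aldose reductase relative that reduces products of lipid peroxidation, had levels of -3.48, -4.31, -3.51 and -4.29 on the 4 WT DEN arrays and -1.26, -0.98, -0.97 and -0.95 on the 4 WT DEN + PB arrays, with a change of 2.86 ± 0.22 (adjusted p = 2.24e-06), which was 1.07 with normexp without far-low spots. Aldh1a1, which makes retinoic acid, had a change of 0.36 ± 0.15 and was not called.

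Drug transporters were called at 4 of 22 tested genes, all higher, with a median of 0.11 over the list. Abcc4, an exporter in the membrane that faces the blood, had levels of -0.26, -0.30, -0.32 and -0.56 on the 4 WT DEN arrays and 2.50, 3.12, 3.1 and 3.79 on the 4 WT DEN + PB arrays. The DEN arrays lay within 0.4 log2 units of each other, and the rise was 3.49 ± 0.26 (adjusted p = 2.04e-06) with 3.77 ± 0.41 at a second probe. Abcb1a, the P-glycoprotein gene, rose by 1.38 ± 0.28, Abcc5 by 1.29 ± 0.14 and Abcc3 by 0.63 ± 0.14. Probes disagreed on the size for Abcc5, from 0.31 ± 0.28 to 1.92 ± 0.21, and the second Abcc3 probe was not past the threshold (adjusted p = 0.374). The call of Abcb1a was kept only without WT DEN + PB 2 (1.21 to 1.57 over the 8 fits) and was lost under 8 of 14 further settings, slide as a fixed block among them. That of Abcc3 was kept only without WT DEN 1 (0.54 to 0.73 over the 8 fits) and was lost under 8 of 14 further settings, slide as a fixed block among them.

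NRF2 directs a set of antioxidant genes, and 2 of 19 tested were called, with a median of 0.18. Nqo1, a quinone reductase, had levels of 0.98, 0.47, 1.14 and 0.33 on the 4 WT DEN arrays and 1.46, 1.58, 2.03 and 2.36 on the 4 WT DEN + PB arrays, a rise of 1.13 ± 0.22 (adjusted p = 0.0233). Srxn1, which repairs oxidised peroxiredoxins, rose by 0.86 ± 0.17 (adjusted p = 0.025), with all 3 of its probes called. Gclc, of glutathione synthesis, had a change of 0.27 ± 0.13 and was not called. The call of Nqo1 was lost without WT DEN 2 or 4 or WT DEN + PB 3 or 4 (0.96 to 1.26 over the 8 fits) and under 6 of 14 further settings, slide as a fixed block among them. That of Srxn1 was lost without WT DEN 2 or 4 or WT DEN + PB 2 or 4 (0.71 to 0.96 over the 8 fits) and under 6 of 14 further settings, slide as a fixed block among them.

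The receptors themselves were not among the called genes. None of 27 nuclear receptors and partners was called by limma (3 at an unadjusted p under 0.05), with changes from -0.65 to 0.76 and a median of -0.14. CAR (Nr1i3) had levels of 2.90 ± 0.19 under DEN and 2.64 ± 0.10 under DEN + PB (SD, n = 4) and PXR (Nr1i2) of 3.22 ± 0.31 under DEN and 3.23 ± 0.29 under DEN + PB, both with overlapping groups.

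Imprinted non-coding RNAs of the Dlk1-Dio3 region, which are active in fetal liver and largely silent in the adult organ, were among the rises. Meg3 had levels of -1.0, -3.0, -2.87 and -2.20 on the 4 WT DEN arrays and 1.68, 2.73, 1.58 and 1.14 on the 4 WT DEN + PB arrays. The groups were far apart, WT DEN 1 was the highest DEN array, and the change was 4.05 ± 0.49 (adjusted p = 2.07e-04). Of its 5 tested probes 3 were called, and the changes of the other two were 2.25 ± 0.55 and 1.16 ± 0.67. Rian, its neighbour in the same cluster, had a signal well above background on 3 DEN + PB arrays and on no DEN array, and it was at least 1.82-fold higher there. Its call was lost with the uncorrected median signal and with normexp without far-low spots, where its log2 changes were 0.49 and 0.18. In the list of oncofetal liver genes, 2 of 12 tested members were called and the median was 0.81, or 0.70 with genes below background set at their bound. Dlk1, the protein-coding gene of the same region, had a change of 1.57 ± 0.45 (adjusted p = 0.196), with a signal well above background on 1 DEN and 4 DEN + PB arrays. Igf2, a fetal growth factor, had levels of -3.78 ± 0.06 under DEN and -2.70 ± 0.59 under DEN + PB with groups apart (adjusted p = 0.0689), and Afp, alpha-fetoprotein, had a change of 0.14 ± 0.27 with overlapping groups. Ly6d, whose groups overlapped, and Prom1, well above background on 2 DEN arrays, had changes of 1.79 ± 0.64 and 1.68 ± 0.50 (adjusted p = 0.4 and 0.219). Dlk1, Igf2, Ly6d and Prom1 were picked for their size after their values were seen. Of this list, Rian, Dlk1 and Prom1 passed the filter only through a DEN + PB group, for Rian that of the KO mice.

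Other large rises fell outside the drug metabolism lists. Smpd3, a neutral sphingomyelinase that releases ceramide, had levels of -2.44, -2.78, -3.03 and -2.91 on the 4 WT DEN arrays and 1.15, 0.74, 0.78 and 1.94 on the 4 WT DEN + PB arrays, which lay far apart. Its change was 3.94 ± 0.28 (adjusted p = 1.2e-06), and all 3 probes were called. Tmeff2, a membrane protein with EGF-like and follistatin domains, had levels of -5.84, -5.87, -4.50 and -4.91 on the 4 WT DEN arrays and -1.30, 0.03, -1.61 and -3.67 on the 4 WT DEN + PB arrays. On 2 of the 4 DEN arrays it was well above background, its change was 3.64 ± 0.57 (adjusted p = 0.00279), and 2 of 3 probes were called. With normexp without far-low spots its change was 1.11 and not called. Scn8a, a sodium channel subunit also above background on 2 of 4 DEN arrays, had a change of 2.92 ± 0.62 (adjusted p = 0.0346). Its call was kept only without WT DEN 3 or WT DEN + PB 4 (2.50 to 3.43 over the 8 fits) and was lost under 6 of 13 further settings, slide as a fixed block among them. Pnliprp1, a relative of pancreatic lipase, was on no DEN array well above background, had levels of -2.07, -1.50, -2.20 and -1.85 under DEN + PB and was at least 11.2-fold higher there. Its log2 change was 1.70 and 1.01 with the uncorrected median signal and with normexp without far-low spots, and was called in both. Of the other 19 pancreatic acinar genes on the array 11 were below the filter and 8 were tested and not called. The elastases Cela3b and Cela1 had the largest changes of these 8, 2.14 ± 0.62 and 1.25 ± 0.41 (adjusted p = 0.206 and 0.325). Cela3b, singled out after its values were seen, had groups that did not overlap and was well above background on 2 DEN and 4 DEN + PB arrays, while the groups of Cela1 overlapped. The changes of the other 6 acinar genes ran from -0.76 to 0.22. Pnlip, the pancreatic lipase itself, was not well above background on a single WT array. Summed levels of the 9 acinar genes tested, each relative to the 75th percentile, ran from 6.95 to 9.36 under DEN and from 6.8 to 9.53 under DEN + PB.

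The list of motile cilium and axoneme genes had 23 members on the array, of which 10 were tested and 4 rose. Those 10 include genes that passed the filter only through their level under DEN + PB. All 4 that rose also stand in the study's own lists of genes changed after PB. The list and its members were chosen with earlier results of these data known, so nothing is read from the share called. Rsph4a, a radial spoke protein, was at least 5.19-fold higher, and its call was lost with normexp without far-low spots (0.54). Dnah1, an axonemal dynein, rose by 2.18 ± 0.35 (adjusted p = 0.00421), with 1 of 4 DEN arrays well above background. Ppp1r42 rose by 2.27 ± 0.33. Both calls were lost with the uncorrected median signal and with normexp without far-low spots, where the log2 changes were 0.40 and 0.20 for Dnah1 and 0.95 and 0.55 for Ppp1r42. Ttc39a, a tetratricopeptide repeat protein, rose by 3.06 ± 0.33, which was 1.21 and called with normexp without far-low spots. The other 6 tested genes were not called, among them Foxj1, the master regulator of motile cilia, at 1.08 ± 0.48 (adjusted p = 0.63), which was singled out after its value was seen, and 13 genes of the list on the array were below the filter.

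Fndc5 and a few further genes below were also assayed by PCR in the study. Fndc5, which encodes the precursor of the secreted protein irisin, had levels of -2.43, -3.17, -2.22 and -2.82 on the 4 WT DEN arrays and -1.10, -1.11, -0.15 and -0.83 on the 4 WT DEN + PB arrays. The groups did not overlap, WT DEN + PB 3 was the highest array, and the change was 1.87 ± 0.24 (adjusted p = 3.95e-04) with 1.99 ± 0.23 at a second probe. The change of the first probe was 0.98 and called with normexp without far-low spots. None of the other 10 tested relatives of Fndc5 and regulators by PGC1 was called, and Ppargc1a had a change of -0.19 ± 0.23. Tgfbr2, the type II receptor for TGF-beta, had levels of 2.17, 2.19, 2.46 and 2.32 on the 4 WT DEN arrays and 2.74, 2.92, 2.94 and 3.14 on the 4 WT DEN + PB arrays, which did not overlap, and a change of 0.65 ± 0.15 (adjusted p = 0.0545). Among 34 genes of TGF-beta, activin and BMP signalling, Ltbp3, which binds latent TGF-beta, was the single call at 0.65 ± 0.14 (adjusted p = 0.0335). Its second probe was not past the threshold (0.46 ± 0.32). Its call was kept only without WT DEN 4 (0.59 to 0.73 over the 8 fits) and was lost under 8 of 14 further settings, slide as a fixed block among them. Tgfb1 itself had levels of -1.99 ± 0.52 under DEN and -1.93 ± 0.48 under DEN + PB (SD, n = 4). Thbs1, an activator of latent TGF-beta singled out after its value was seen, was well above background on all 4 DEN + PB arrays and on no DEN array (adjusted p = 0.611). Nedd9, a scaffold protein of cell adhesion, had a change of 0.64 ± 0.28 (adjusted p = 0.62). Cdh1, E-cadherin, had one of 0.71 ± 0.55. Casp1, the inflammasome protease, had levels of 0.21 ± 0.38 under DEN and 0.26 ± 0.34 under DEN + PB.

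Gadd45b, whose stress-induced protein is known to bind CAR, had levels of -0.60, -0.54, 0.12 and -1.69 on the 4 WT DEN arrays and -0.16, 0.56, 1.17 and 0.58 on the 4 WT DEN + PB arrays. WT DEN + PB 1 lay below WT DEN 3, so the groups overlapped, and the change was 1.22 ± 0.37 (adjusted p = 0.239, exact permutation p = 0.0571). In the list of Gadd45 genes and p53 targets, Gdf15, a stress-induced cytokine, was the 1 of 27 tested genes called. Its levels were 2.29, 1.40, 1.27 and 1.30 on the 4 WT DEN arrays and 2.87, 3.25, 3.03 and 2.77 on the 4 WT DEN + PB arrays, with WT DEN 1 well above the other DEN arrays, and the rise was 1.42 ± 0.24 (adjusted p = 0.0052). Cdkn1a, the p53 target that halts the cell cycle, had a change of -0.41 ± 0.36. None of 29 cell cycle genes was called by limma and 2 had an unadjusted p under 0.05, while 24 of 29 changes were positive and their median was 0.41. Cenpf, the largest of these changes at 1.02, passed the filter only through the DEN + PB groups. Mki67, a marker of dividing cells, had levels of -2.03 ± 0.31 under DEN and -1.26 ± 0.54 under DEN + PB (SD, n = 4), with an adjusted p of 0.818.

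Falls were fewer. Hamp, which encodes hepcidin, the hormone that limits iron export into blood, had levels of 7.60, 7.50, 7.54 and 6.97 on the 4 WT DEN arrays and 5.70, 3.77, 5.60 and 5.96 on the 4 WT DEN + PB arrays. All 4 DEN + PB arrays lay below all DEN arrays, WT DEN + PB 2 by the most, and Hamp fell by 2.15 ± 0.39 (adjusted p = 0.0124). It was the only called gene of 17 tested in iron regulation, whose median was -0.08. Hamp2 had a change of -0.70 ± 0.51, the transferrin receptor Tfrc one of 1.49 ± 0.34 (adjusted p = 0.0678) with groups apart, and the BMP target Id1 one of -1.53 ± 0.42 (adjusted p = 0.165). Tfrc and Id1 were picked after their values were seen. The call of Hamp was lost with only the WT arrays in the fit (adjusted p = 0.0578), without moderation (0.0676), with the authors' value table (0.0566) and after both fits of normexp background correction on all spots (0.319 and 0.295). The log2 changes in those normexp fits were -2.20 and -2.19, and they lay between -2.38 and -1.65 with 1 array left out and under the other settings.

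Bcat1, which starts the breakdown of branched-chain amino acids outside the liver, was well above background on all 4 DEN arrays, with levels of -3.70, -4.63, -3.57 and -2.70. None of the 4 DEN + PB arrays measured it above background, and it was at least 3.68-fold lower there. Its call was lost with the uncorrected median signal and with normexp without far-low spots, with log2 changes of -0.77 and -0.46. The other 21 tested genes of that pathway were not called, among them Bcat2 with levels of -1.44 ± 0.32 under DEN and -1.40 ± 0.41 under DEN + PB (SD, n = 4). Aatk, a neuronal kinase linked to apoptosis, had levels of 3.36, 2.66, 3.31 and 2.90 on the 4 WT DEN arrays and 1.18, 1.43, 1.10 and 1.14 on the 4 WT DEN + PB arrays, which lay well apart, and fell by 1.84 ± 0.29 (adjusted p = 0.00275). Susd4, a complement regulator, fell by 1.77 ± 0.34 (adjusted p = 0.0182). Dpy19l3, an enzyme of C-mannosylation, fell by 1.02 ± 0.18 with both probes called. Sntg2, a syntrophin, fell by 0.93 ± 0.17 and S1pr5, a receptor for sphingosine phosphate, fell by 0.83 ± 0.18. The call of Sntg2 was lost with only the WT arrays in the fit and with the authors' value table. The call of S1pr5 was kept only without WT DEN 4 (-0.91 to -0.77 over the 8 fits) and was lost under 7 of 14 further settings, slide as a fixed block among them. Grid1, a glutamate receptor subunit, fell by 1.79 ± 0.34 and Pknox2, a homeobox factor, fell by 1.71 ± 0.38. Prrx1, a homeobox factor of mesenchyme, fell by 1.60 ± 0.35 and Wfdc12 fell by 1.5 ± 0.32. These last 4 were low, with 2, 2, 3 and 1 of the DEN + PB arrays well above background in that order. At Prrx1, 2 further tested probes were not past the threshold. The call of Susd4 was lost without WT DEN 2 or WT DEN + PB 1 or 4 (-2.06 to -1.50 over the 8 fits) and under 4 of 14 further settings, and that of Dpy19l3 was lost without WT DEN + PB 2 (-1.16 to -0.91 over the 8 fits) and under 3 of 14 further settings, slide as a fixed block among them. The call of Grid1 was lost without WT DEN 3 or WT DEN + PB 4 (-2.09 to -1.48 over the 8 fits) and under 4 of 13 further settings. The call of Pknox2 was kept only without WT DEN + PB 3 (-2.08 to -1.44 over the 8 fits) and was lost under 8 of 13 further settings. The call of Prrx1 was kept only without WT DEN 3 or WT DEN + PB 2 (-1.87 to -1.31 over the 8 fits) and was lost under 9 of 13 further settings, slide as a fixed block among them. The call of Wfdc12 was kept only without WT DEN + PB 1 (-1.64 to -1.36 over the 8 fits) and was lost under 10 of 13 further settings, slide as a fixed block among them.

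**Figure D3:**
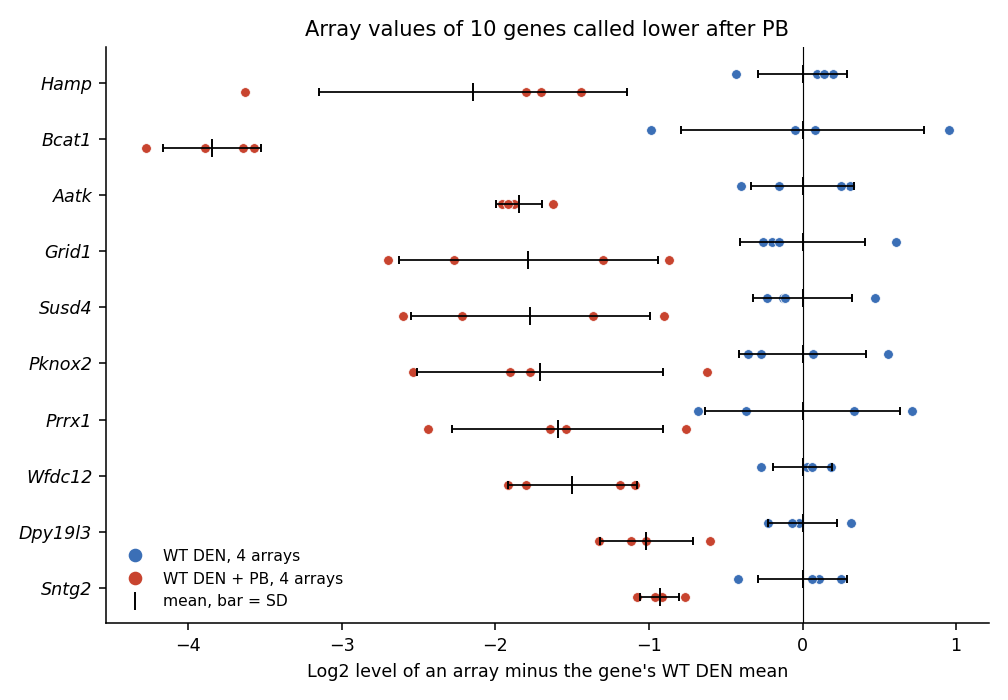
Log2 levels of 10 genes called lower after PB on the 4 WT DEN arrays (blue) and the 4 WT DEN + PB arrays (red), each minus the gene's WT DEN mean, with the group mean as a tick and the SD as a bar. All red points of a gene lie left of all its blue points. The red points of Bcat1 were not well above background, so its distance is given in the text only as at least 3.68-fold.

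Genes with a sex bias in liver were examined because the mice were males and because Cyp2b9, Cyp2b13, Sult1e1 and Akr1b7 belong to both groups. These 4 were the called members among 21 tested female-biased genes, of which 16 had positive changes, and the median was 0.57, or 0.33 with genes below background at their bound. Hao2, a peroxisomal oxidase singled out after its values were seen, had levels of -1.99, -2.69, -2.95 and -3.08 on the 4 WT DEN arrays and -1.02, -1.60, -0.43 and 1.23 on the 4 WT DEN + PB arrays, which did not overlap, at an adjusted p of 0.123. Among 24 tested male-biased genes, Susd4 was the only call, 19 changes were negative and the median was -0.44. The male-biased steroid dehydrogenase Hsd3b5, also picked after its values were seen, had levels of 5.23, 5.02, 5.37 and 5.21 on the 4 WT DEN arrays and 2.89, 4.80, 2.85 and -1.97 on the 4 WT DEN + PB arrays. The DEN arrays lay close together, the DEN + PB arrays spread widely below them, with a change of -3.06 ± 1.01 (adjusted p = 0.324). Cyp7b1, which hydroxylates oxysterols, had a change of -0.70 ± 0.25 with groups apart (adjusted p = 0.397), and Cyp2d9 had levels of 7.74 ± 0.29 under DEN and 7.80 ± 0.16 under DEN + PB. None of 18 genes of the growth hormone and IGF axis was called by limma (3 at an unadjusted p under 0.05). Their median was -0.26, with -0.35 ± 0.15 for the growth hormone receptor Ghr and -0.43 ± 0.18 for Igf1.

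Liver zonation was examined through genes of the cells around the central and portal veins. Of 22 pericentral genes under Wnt control tested, Rhbg, an ammonia transporter of the cells around the central vein, was the 1 called. Its levels were 1.37, -0.52, 0.51 and 0.63 on the 4 WT DEN arrays and 2.19, 2.70, 1.61 and 3.17 on the 4 WT DEN + PB arrays, a rise of 1.92 ± 0.39 (adjusted p = 0.0286). The call was kept only without WT DEN 1 or WT DEN + PB 3 (1.58 to 2.21 over the 8 fits) and was lost under 5 of 14 further settings, slide as a fixed block among them. The median of the list was -0.08. Glul, glutamine synthetase of the same cells, had levels of 5.34 ± 0.21 under DEN and 5.30 ± 0.20 under DEN + PB (SD, n = 4). Axin2 had a change of -0.22 ± 0.21 and Slc13a3, picked after its value was seen, one of 1.27 ± 0.32 (adjusted p = 0.106). None of 17 periportal genes was called by limma (7 at an unadjusted p under 0.05), 15 changes were negative and the median was -0.21.

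Lipid, bile acid and glucose genes gave no call. None of 20 Cyp4a genes and PPAR-alpha targets was called by limma (4 at an unadjusted p under 0.05), with a median of -0.16. Cyp4a14, a fatty acid hydroxylase, had levels of 7.18, 6.51, 7.45 and 6.44 on the 4 WT DEN arrays and 4.93, 3.76, 6.42 and 6.87 on the 4 WT DEN + PB arrays, which overlapped and spread over 3 log2 units under DEN + PB. Cyp4a10 had 5.15 ± 0.47 under DEN and 5.14 ± 0.85 under DEN + PB (SD, n = 4). None of 16 genes of bile acid and cholesterol turnover was called (1 at an unadjusted p under 0.05). Cyp7a1, the rate-limiting enzyme of bile acid synthesis, had 2.26 ± 1.17 under DEN and 2.25 ± 0.74 under DEN + PB. Cyp8b1, which acts further down, had 2.72 ± 0.48 under DEN and 2.65 ± 0.38 under DEN + PB. The 30 genes of cholesterol and fatty acid synthesis had no call and 2 at an unadjusted p under 0.05. Fasn, fatty acid synthase, had 7.39 ± 0.63 under DEN and 7.62 ± 0.39 under DEN + PB. For gluconeogenesis 0 of 14 and for lipid droplets 0 of 14 were called by limma, with 0 and 1 at an unadjusted p under 0.05. G6pc had a change of -0.43 ± 0.27 and Plin2 one of -0.29 ± 0.23. G0s2, a lipase inhibitor picked after its value was seen, had one of -1.30 ± 0.47. Cidec had levels of 4.63 ± 0.79 under DEN and 4.81 ± 0.49 under DEN + PB. Of 8 genes that respond to thyroid hormone none was called (3 at an unadjusted p under 0.05), with 0.53 ± 0.23 for the deiodinase Dio1 and 0.96 ± 0.43 for Thrsp.

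Among genes of inflammation and stress, Orm3, an acute phase protein, was the 1 of 30 acute phase genes called. Its levels were -0.30, -1.59, -1.08 and -1.43 on the 4 WT DEN arrays and 1.02, 0.91, 0.93 and 2.14 on the 4 WT DEN + PB arrays, with WT DEN + PB 4 above the rest of its group, and its rise was 2.35 ± 0.36 (adjusted p = 0.00261). Lcn2, lipocalin 2, had a change of 1.61 ± 0.51 (adjusted p = 0.287) with groups apart, and Saa1 had levels of 4.03 ± 0.67 under DEN and 4.21 ± 0.61 under DEN + PB (SD, n = 4). No interferon and MHC gene (0 of 30), inflammasome gene (0 of 13), immediate early gene (0 of 20), ER stress gene (0 of 26), clock gene (0 of 19) or serine protease inhibitor of the Serpinb1 list (0 of 15) was called by limma. Those at an unadjusted p under 0.05 numbered 3, 1, 4, 3, 2 and 2. Their medians were 0.17, -0.11, 0.00354, 0.16, 0.01 and -0.04. The interferon gene Ifit1 had a change of 0.55 ± 0.42, the growth response gene Fos one of 0.46 ± 0.27 and the stress factor Ddit3 one of 0.42 ± 0.26. Serpinb1a and Serpinb1b had changes of 0.92 ± 0.38 and 0.98 ± 0.49. Levels of Isg15 were 0.68 ± 0.09 under DEN and 0.88 ± 0.57 under DEN + PB and those of Egr1 2.62 ± 0.39 under DEN and 2.63 ± 0.92 under DEN + PB. The chaperone Hspa5 had 7.13 ± 0.24 under DEN and 7.16 ± 0.42 under DEN + PB. For the clock genes Arntl and Per1 the levels were 0.79 ± 0.46 under DEN and 0.49 ± 0.54 under DEN + PB, and -1.48 ± 0.64 under DEN and -1.60 ± 0.66 under DEN + PB. Nlrp3 was below the filter.

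Markers of the cell types of liver were measured beside these results. All 9 hepatocyte markers were well above background on the 8 WT arrays, none was called by limma (4 at an unadjusted p under 0.05), all 9 changes were negative and the median was -0.26. Alb, albumin, had 9.16 ± 0.44 under DEN and 8.96 ± 0.23 under DEN + PB (SD, n = 4), and Apoa1 a change of -0.42 ± 0.19. Their summed level ran from 1197 to 1574 under DEN and from 1088 to 1276 under DEN + PB. Among 9 tested markers of cholangiocytes and progenitor cells, the keratins Krt19 and Krt7 were called, 7 changes were positive and the median was 0.76. Prom1, 1 of these 7, passed the filter only through its WT level under DEN + PB. Krt19 had levels of -3.37, -3.18, -2.75 and -2.47 on the 4 WT DEN arrays and -1.96, -1.58, -1.57 and -1.58 on the 4 WT DEN + PB arrays, which did not overlap, and rose by 1.27 ± 0.19 (adjusted p = 0.00208). With normexp without far-low spots its change was 0.48 and not called. Krt7 rose by 1.16 ± 0.23 (adjusted p = 0.022), and its second probe was not past the threshold (0.64 ± 0.27). The call of Krt7 was kept only without WT DEN 3 or 4 or WT DEN + PB 1 (1.01 to 1.31 over the 8 fits) and was lost under 6 of 14 further settings, slide as a fixed block among them. Sox9, a factor of the same cells, had a change of -0.40 ± 0.26, and the summed level of the 9 markers ran from 15.5 to 34.1 under DEN and from 21.6 to 38.6 under DEN + PB, overlapping between groups. Among the markers below the filter were Cftr, Muc1, Cldn4, Ehf and Sctr. The part that the share of these cells had in the keratin rises was not tested.

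Stellate and matrix genes (0 of 19), endothelial genes (0 of 18) and Kupffer cell and leukocyte genes (0 of 28) had no call by limma, with 4, 1 and 3 at an unadjusted p under 0.05. Their medians were 0.20, -0.03 and 0.05. Col1a1, collagen of activated stellate cells, had levels of -1.20, -0.43, -0.78 and -0.51 on the 4 WT DEN arrays and -0.03, 0.21, -0.12 and 1.12 on the 4 WT DEN + PB arrays, which did not overlap. Its change was 1.02 ± 0.28 (adjusted p = 0.162), and Col3a1 had one of 0.54 ± 0.24. The endothelial gene Pecam1 had levels of -2.58 ± 0.17 under DEN and -2.47 ± 0.33 under DEN + PB, and Kdr had a change of -0.22 ± 0.19. Ptprc, the common leukocyte antigen, had 0.67 ± 0.68 under DEN and 0.92 ± 0.36 under DEN + PB. Clec4f, of Kupffer cells, had 3.93 ± 0.33 under DEN and 3.79 ± 0.08 under DEN + PB. The summed level of the leukocyte list ran from 85.8 to 259 under DEN and from 109 to 130 under DEN + PB. Erythroid genes (0 of 6), adipocyte genes (0 of 7) and genes of liver tumour foci (0 of 10) also had no call by limma, with 1, 2 and 3 at an unadjusted p under 0.05. Their medians were -0.11, 0.13 and 0.15. Cfd, adipsin, had a change of -2.17 ± 0.54 (adjusted p = 0.106) with groups apart and was picked after its value was seen. Adipoq was below the filter, and Retn had -4.42 ± 0.51 under DEN and -4.23 ± 0.87 under DEN + PB. The globin gene Hba-a1 had levels of 5.93 ± 0.39 under DEN and 5.92 ± 0.42 under DEN + PB, and Hbb-bt had 6.88 ± 0.44 under DEN and 6.82 ± 0.41 under DEN + PB. Gpc3, a marker of liver tumours, had -4.26 ± 0.47 under DEN and -4.10 ± 0.16 under DEN + PB.

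**Figure D4:**
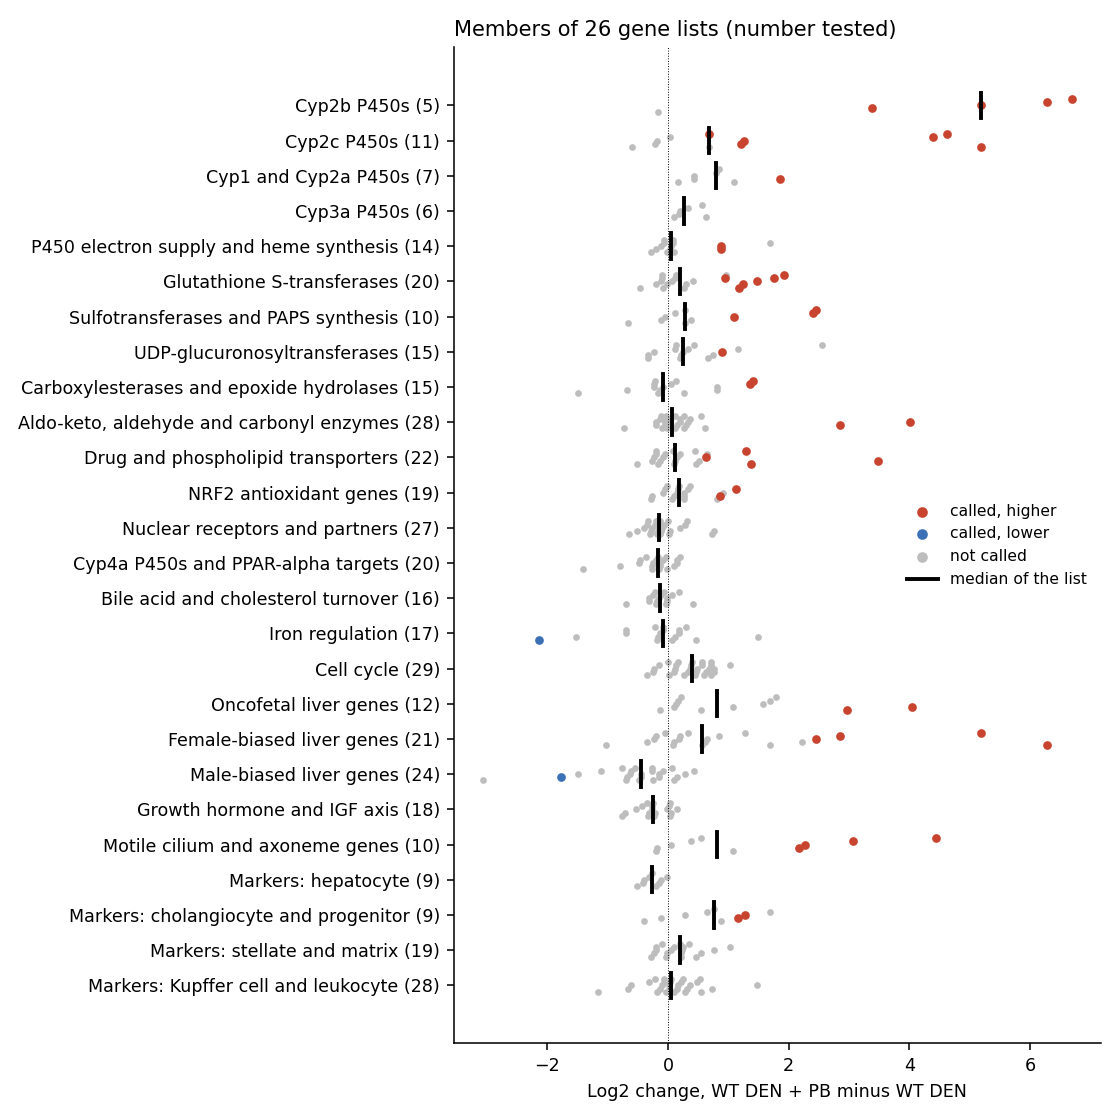
Log2 changes after PB (WT DEN + PB minus WT DEN) of the tested members of 26 gene lists, 1 point per gene, with the number tested in brackets and the list median as a black line. Red and blue points are members called higher and lower. The lists and their members were chosen with earlier results of these data known. The Cyp2b line stands at 5.19, the nuclear receptor, bile acid and hepatocyte marker lists have no coloured point, and most list medians lie near 0.

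Another 38 called genes were named neither by their size nor by a list, 37 higher and S1pr5 lower. Gna14, a G protein subunit, rose by 2.84 ± 0.22 (adjusted p = 2.1e-06), and Sdcbp2, Pls1 and Meig1 rose by between 2.55 and 2.84. Ptges, which makes prostaglandin E2, rose by 1.94 ± 0.23, and Limk1, a kinase that regulates actin, by 1.66 ± 0.29. Smaller rises were 1.31 ± 0.19 for the Notch ligand Dll4, 1.28 ± 0.21 for the guidance receptor Robo1 and 1.26 ± 0.21 for the collagen Col15a1. With normexp without far-low spots the calls of Dll4, Col15a1 and Ptges were lost, and Limk1 lost its call with only the WT arrays in the fit. Dll4 also lost it with the uncorrected median signal and Col15a1 with the authors' value table. Kif12, a kinesin, rose by 1.04 ± 0.21 with 1 of 2 tested probes called, and Bicc1, an RNA-binding protein, by 1.03 ± 0.22. The call of Kif12 was kept only without WT DEN 4 or WT DEN + PB 1 (0.92 to 1.14 over the 8 fits) and was lost under 5 of 14 further settings, slide as a fixed block among them, and that of Bicc1 was kept only without WT DEN 3 or WT DEN + PB 1 (0.86 to 1.22 over the 8 fits) and was lost under 5 of 14 further settings, slide as a fixed block among them. Of the 38 genes, 19 were called with each of the 8 WT arrays left out in turn. These genes were picked for description after their values were seen.

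Of the 163 probes called, 38 matched no gene symbol, 34 higher and 4 lower. Several of the 38 were assigned to the same transcript, so they do not stand for 38 separate genes. Probe A_51_P182362 had levels of 0.42, -1.19, -2.21 and -1.66 on the 4 WT DEN arrays and 5.45, 5.18, 5.53 and 4.88 on the 4 WT DEN + PB arrays, a change of 6.42 ± 0.51 (adjusted p = 2.57e-06). Within each WT group its arrays ranked in the same order as those of Cyp2b10. Whether it reads Cyp2b10 was not tested, so it is not counted as a further gene. Probe A_51_P426513, measured above background on 1 of 4 DEN arrays, had a change of 5.59 ± 0.77. Probe A_52_P134621 stood well above background on each of the 4 DEN arrays but on none of the DEN + PB arrays, where it was at least 4.17-fold lower, and A_52_P242609 was at least 2.26-fold lower in the same way. Both of these calls were lost with normexp without far-low spots (log2 changes of -0.56 and -0.24), and that of A_52_P242609 with the uncorrected median signal too.

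The difference of the PB effect between genotypes was tested for the 98 called genes as the WT effect minus the KO effect. None passed over all probes in limma and 31 (31.6%) had an unadjusted p under 0.05, against 881 (6.62%) of all 13304 genes tested. The WT effect by which the 98 genes were chosen is 1 side of this difference, so nothing is read from their share. For Cyp2b10 the change was 6.80 ± 0.62 in KO, and the difference was -0.11 ± 0.87 (unadjusted p = 0.899). Fndc5 rose by 1.29 ± 0.24 in KO (limma adjusted p = 0.00859), with a difference of 0.57 ± 0.34 (unadjusted p = 0.109, adjusted p = 0.925). At Krt19 the KO change was -0.22 ± 0.19, with a difference of 1.48 ± 0.27 (unadjusted p = 4.76e-05, adjusted p = 0.162). Its levels were -2.30, -2.18, -2.76 and -2.32 on the KO DEN arrays and -2.65, -2.66, -2.67 and -2.44 on the KO DEN + PB arrays, so that the WT DEN + PB arrays were the highest of the 4 groups. Hamp had -0.13 ± 0.39 in KO, with a difference of -2.02 ± 0.56 (unadjusted p = 0.00227, adjusted p = 0.415). At Sult1e1 the fitted rise was larger in KO than in WT, 5.27 ± 0.42 against 2.45 ± 0.42. Its difference was -2.82 ± 0.59 (unadjusted p = 2.08e-04, adjusted p = 0.185). Krt7 had -0.13 ± 0.23 in KO (adjusted p of the difference = 0.325). Of all 24454 probes tested, 2 passed for the difference, both without a gene symbol here. Probe A_52_P259497, singled out for its difference, had levels of -5.46, -4.78, -5.71 and -5.39 on the 4 WT DEN arrays and -2.35, -2.30, -3.46 and -1.99 on the 4 WT DEN + PB arrays, where it rose by 2.81 ± 0.42 (adjusted p = 0.00186). In KO its levels were -3.75, -1.50, -2.90 and -2.44 on the DEN arrays and -5.04, -4.49, -3.88 and -3.84 on the DEN + PB arrays, a change of -1.66 ± 0.42 (adjusted p = 0.0566). The arrays with a signal of it well above background numbered 1 for WT DEN, 4 for WT DEN + PB, 4 for KO DEN and 3 for KO DEN + PB. The difference was 4.48 ± 0.59 (adjusted p = 0.0133). It was no longer past the threshold without WT DEN + PB 1 or 2 (4.30 to 4.79 over the 8 fits) and in 7 of 14 further fits, down to 0.65 after normexp. The rise in WT was itself not called with the uncorrected median signal and with normexp without far-low spots. The other probe, A_52_P134621, was not well above background on any KO array. The KO mice also came from another stock, so genotype and stock cannot be told apart in these differences, and a difference that did not pass is not shown to be absent.

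**Figure D5:**
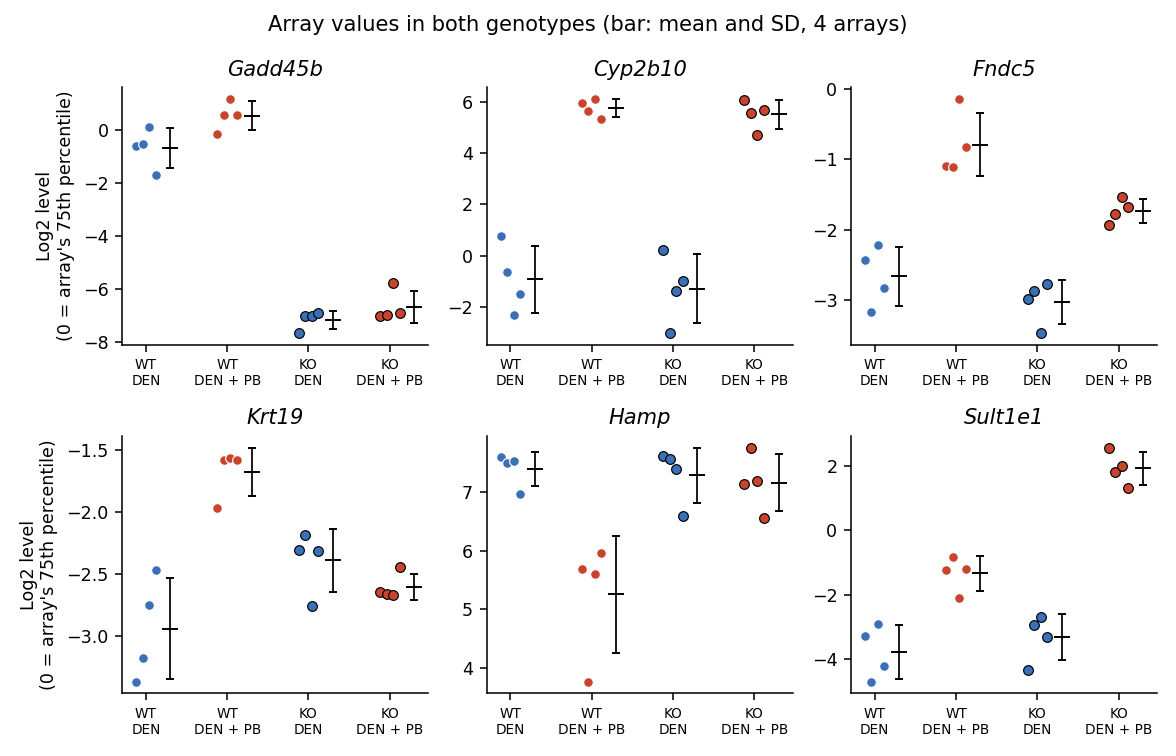
Log2 levels of 6 genes on the 16 arrays by genotype and treatment, 4 points per group. DEN is in blue, DEN + PB in red, KO points have a black edge and the bar gives mean and SD. Gadd45b is well above background on the WT arrays alone, and Cyp2b10 is high on all 8 DEN + PB arrays. The WT DEN + PB arrays stand apart from the other 3 groups for Krt19 (higher) and Hamp (lower). For neither Krt19 nor Hamp did the difference of the PB effect between genotypes pass after adjustment. Fndc5 rose in both genotypes.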

How the data were processed

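Liver RNA of 16 mice was hybridised to 1-colour Agilent Whole Mouse Genome arrays with Cy3, 1 array per mouse. The deposited intensity values are processed signals that the authors extracted from scans with Agilent Feature Extraction, which subtracts background. Control spots and outlier spots were left out here, spots of 1 probe were averaged, and log2 of the mean minus that of the array's 75th percentile was taken. The deposited value table of the authors, which holds the same mean signals with no scaling between arrays, was an alternative. Of 41174 probes, 28223 (68.5%) had a gene symbol through RefSeq accessions.

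A probe was tested when all 4 arrays of at least 1 of the 4 groups, KO groups included, had it well above background (24454 probes). A gene could thus pass only through a group where it was high, which bears on list medians and counts of directions. limma 3.58.1 in R 4.3.3 fitted the 4 groups on all 16 arrays with empirical Bayes moderation and no covariate, and Benjamini-Hochberg adjustment ran over all probes tested. Calls required 1.5-fold besides an adjusted p under 0.05. Single genes were also tested by an exact permutation test over 70 assignments. Where no array of a group was well above background, the fold is given as a lower bound: the mean of the bright group against the mean of the higher of the lowest signal well above background and the probe's own signal, per array of the dim group. With 4 arrays per group, their number limits the precision.

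Genes were named when the study had measured them by PCR, when they were among the 15 largest rises or 10 largest falls with separate groups, when they stood in the first 2 places of a list or when they were called list members. Some genes of this rule and of the marker lists are not reported here. For probes without a symbol the rule named 3 rises and 3 falls, of which the largest are given. The comparison, gene lists and members were chosen with earlier results of these data known. The code was tested on simulated data. Alternatives covered scaling, background correction, filter, moderation, slide, pairing and left-out arrays.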

Additional observations from a re-analysis of the deposited data

Results flagged for a closer look

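Among groups of 4 WT arrays at the named genes, 13 of 138 held 1 array far from the other 3, where chance alone gives about 1 in 20. WT DEN 1 was high for Gdf15 (2.29) and low for Cdh1 (0.74). WT DEN 2 was high for Susd4 (3.24). WT DEN 3 was high for Casp1 (0.77) and Grid1 (-2.78). WT DEN 4 was low for Hamp (6.97) and Cyp2c39 (4.50) and high for Ltbp3 (-1.40). Under PB, WT DEN + PB 1 was low for Akr1b7 (-1.26) and Krt19 (-1.96), WT DEN + PB 2 was low for Hamp (3.77) and WT DEN + PB 4 was high for Cbr3 (6.10) and Orm3 (2.14).

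For probe A_52_P134621, which has no gene symbol here, the PB effect differed between genotypes by a fitted -4.34 log2 units (limma adjusted p = 0.00281). None of the 8 KO arrays had it well above background, so this value is no measured size, and the difference was not past the threshold after the background alternatives or without moderation. For probe A_52_P259497, also without a gene symbol here, the effect differed by 4.48 log2 units (adjusted p = 0.0133), with a rise in WT and a change of the opposite sign in KO. It was not past the threshold after the background alternatives, without a filter, without moderation, after quantile normalization or without WT DEN + PB 1 or 2.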

How the results depend on the processing

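The count of called genes (98, of 87 higher and 11 lower, from 163 probes) moved by more than 1.5 times with normexp background correction of the median signal, which gave 13 genes (11 higher, 2 lower, 22 probes), or 12 genes (11 higher, 1 lower, 21 probes) with the maximum likelihood fit. Without spots far below their local background the same correction gave 87 genes. The authors' value table without scaling gave 61 genes, 3 of them lower, and 106 probes, with 95.1% of calls higher. Genes called lower numbered 7 after scaling to probes well above background on all arrays, 6 without a filter, 4 without moderation, 6 with only the WT arrays and 6 with the filter on all WT arrays. The cause was not tested. Slide as a fixed block gave 66 genes and as a random block 90. Leaving out 1 array gave 69 to 99 genes in all and 7 to 10 lower. Among the 60 called genes named by the rule, 38 were called with each of the 8 arrays left out, 23 were also called under every other alternative apart from both normexp fits on all spots, and none reversed. Alb, which was not called, changed sign under quantile normalization (0.19 against -0.21). The array files held no mean signal, so the planned normexp and uncorrected alternatives were run on the median signal instead, chosen after seeing the data.

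With the replicate number as a block there were 101 called genes, 88 higher and 13 lower, from 168 probes. Same-numbered arrays deviated together with r = 0.06, -0.07, 0.31 and -0.21 for numbers 1 to 4, and not every array correlated best with its own number, so the numbers were not taken as pairs.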
